A study of Homo sapiens with 96 samples.

Results

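The introns described here are the retained introns (RI) of more than 100 and at most 300 nt in splicing tables of A549 cells. A549 cells are a culture line derived from human lung adenocarcinoma. A member is an RI event whose intron, counted from the end of the upstream exon to the start of the downstream exon, has a length in this range. The rule gave 1757 introns in 1204 genes, out of 4928 different RI in the 8 tables (35.653%). It used intron length and no read count, though the 8 tables did not all list the same RI. Poly(A)-RNA seq was done on 30 libraries in 10 groups of 3. Cells received 0.01% DMSO for 4 or 7 days, GSK591 (1 µM) for 2, 4, or 7 days, MS023 at the same dose and times, or both inhibitors at 1 µM each for 2 or 4 days (co-treatment). GSK591 inhibits PRMT5, which makes symmetric dimethylarginine, and MS023 inhibits the Type I PRMTs, which make asymmetric dimethylarginine. The 2-day and 4-day inhibitor groups were both set against 4-day DMSO, so these comparisons share their controls and a 2-day difference also spans 2 days of culture. The 7-day groups were set against DMSO libraries inferred to be those of day 7. All groups are 1 cell line, the labels do not tell whether the 3 libraries of a group are separate cultures, and p-values therefore measure the spread between libraries only. The libraries of a group are called a, b, and c by their position in the tables.

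The spliceosome removes introns from pre-mRNA after the U1 snRNP has paired with the 5′ splice site and U2 proteins have bound the branch point and the polypyrimidine tract before the 3′ splice site. Retained introns stay in polyadenylated RNA, and many such transcripts are kept in the nucleus until they are spliced, while those that reach the cytoplasm with an early stop codon may be degraded. The PRMTs methylate arginines of Sm proteins and of many RNA-binding proteins that take part in these steps.

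Retention is given as Ψ, which runs from 0 (the intron always removed) to 1 (always kept), and ΔΨ is the Ψ of the first group named minus that of the second. A library had 3148825 to 5224249 reads on all RI, of which 36.8% to 38.4% fell on the members, and the median member had 125 to 203.5 reads, depending on the library. The epithelial markers KRT8, KRT18, CDH1, and EPCAM had reads in their listed events, and PTPRC and PECAM1, which mark leukocytes and endothelium, had no listed event. Of other markers in the list, the T cell gene CD3E had 1 event with 17 reads in 1 table, and the stromal collagen genes COL1A1 and COL3A1 had 150 to 272 and 11 to 17 reads in the DMSO libraries of a table. EPCAM had 73 to 330 and KRT18 at least 62240, and the epithelial marker KRT19 had no listed event. Of the members 1517 were listed in all 8 tables and 52 in 1 table. An intron was tested where each of the 6 libraries had at least 10 reads, and it was called at an adjusted p under 0.05 (quasi-binomial test over all RI, moderated with limma, Benjamini-Hochberg adjustment). Whether the authors' counting used the strand was not stated, and 91 members hold an annotated exon of another gene on the opposite strand, while 91 do so on the same strand. Genes of small nucleolar, small Cajal body, small nuclear, and micro RNAs were left out of these counts. Their overlap with introns of host genes such as GAS5 and SNHG1 is therefore not described.

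Here, 7 introns are shown in full because the results turn on them. NOP2 has 2 neighbouring introns that behaved differently, MOB2 had a large rise with GSK591, the GAS5 intron moved in opposite directions with the inhibitors at day 2, that of C9orf142 did so at days 2, 4, and 7, CEP170 rose with MS023, and ENDOV fell with GSK591. Each is the sense strand of hg19, with 3 exon bases at either end, and the capitals mark the first and last dinucleotides of the intron. The position given is that of the intron alone.
NOP2, 120 nt, chr12:6669493-6669612, minus strand: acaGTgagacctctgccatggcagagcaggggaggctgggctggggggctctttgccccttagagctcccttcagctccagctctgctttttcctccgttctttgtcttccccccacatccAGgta
NOP2, 128 nt, chr12:6669736-6669863, minus strand: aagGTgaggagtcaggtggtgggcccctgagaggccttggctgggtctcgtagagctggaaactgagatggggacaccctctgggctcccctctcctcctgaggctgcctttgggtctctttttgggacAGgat
MOB2, 238 nt, chr11:1501717-1501954, minus strand: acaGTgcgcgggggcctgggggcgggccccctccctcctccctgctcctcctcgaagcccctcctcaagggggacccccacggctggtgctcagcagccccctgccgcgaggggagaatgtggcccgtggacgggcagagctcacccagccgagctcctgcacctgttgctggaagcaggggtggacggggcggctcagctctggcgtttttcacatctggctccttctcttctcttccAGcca
GAS5, 168 nt, chr1:173833645-173833812, minus strand: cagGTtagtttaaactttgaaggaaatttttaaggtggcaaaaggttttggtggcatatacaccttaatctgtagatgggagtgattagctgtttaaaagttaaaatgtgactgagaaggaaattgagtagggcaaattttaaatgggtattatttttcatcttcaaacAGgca
C9orf142, 224 nt, chr9:139887153-139887376, plus strand: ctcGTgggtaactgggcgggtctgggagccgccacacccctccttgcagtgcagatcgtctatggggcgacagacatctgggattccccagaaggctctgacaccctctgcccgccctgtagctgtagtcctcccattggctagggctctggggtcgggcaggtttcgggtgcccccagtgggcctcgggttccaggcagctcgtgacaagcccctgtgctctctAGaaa
CEP170, 186 nt, chr1:243349375-243349560, minus strand: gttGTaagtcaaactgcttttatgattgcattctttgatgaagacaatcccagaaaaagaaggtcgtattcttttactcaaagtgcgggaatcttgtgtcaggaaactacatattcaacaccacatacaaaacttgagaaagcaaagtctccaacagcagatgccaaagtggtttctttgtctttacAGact
ENDOV, 209 nt, chr17:78403632-78403840, plus strand: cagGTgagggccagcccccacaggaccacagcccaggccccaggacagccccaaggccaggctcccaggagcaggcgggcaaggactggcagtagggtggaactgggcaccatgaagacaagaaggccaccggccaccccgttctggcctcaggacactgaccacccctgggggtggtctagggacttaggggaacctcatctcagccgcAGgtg

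NOP2 encodes an rRNA cytosine methyltransferase, and its introns of 120 and 128 nt are intron 14 and intron 13 of 15 in the coding part of the gene. The MOB2 intron is intron 2 of 4 between coding exons, and GAS5 is a noncoding host gene of small nucleolar RNAs, whose 168 nt intron is intron 9 of 11. The C9orf142 intron (intron 2 of 6; the gene encodes the DNA end-joining factor PAXX), the CEP170 intron (intron 9 of 19; a centrosomal protein), and the ENDOV intron (the last of 8; an endonuclease acting on inosine in RNA) lie between coding exons.

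The 5′ splice sites of these introns differed. A score was computed for each as the sum, over 3 exon and 6 intron bases, of log2 of the base frequency in annotated introns of coding genes over 0.25, so that a higher score means a site nearer to the consensus. The NOP2 introns of 120 and 128 nt scored 4.89 and 10.6, MOB2 scored 1.51, C9orf142 2.49, CEP170 6.11, GAS5 8.58, and ENDOV 10.8. The same 9 bases are given for 7 introns that rose with GSK591, of which 6 lack the G that usually ends the exon and 1, MICAL1, has it. They are examples and not typical of the class, since the exon ended in G at 266 of the 390 introns that rose at day 2 (68.2%), at 798 of the 986 not called (80.9%), and at 15 of the 21 that fell (71.4%). The intron is in capitals.
ACTR1B, 235 nt: tctGTGAGT
HAUS5, 253 nt: agaGTGAGA
ETV4, 190 nt: agcGTGAGC
CASKIN2, 131 nt: ccaGTGAGC
TUBGCP6, 187 nt: tgtGTGAGT
MICAL1, 283 nt: ccgGTAAAG
EWSR1, 299 nt: tccGTATGT
Sites are also given for 4 introns that fell with GSK591 at day 2 or day 4, again as examples. The calls described for them below were each lost in at least 1 of the fits that leave out 1 library. Their sites were as follows.
ARFGAP1, 181 nt: aagGTCTGT
LIME1, 105 nt: gcgGTGAGT
RHOT2, 244 nt: gagGTAAGG
TECR, 207 nt: ctaGTAAGT

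The members as a class had lower median splice site scores than annotated introns of coding genes. Those used were GT-AG introns, from which the scores were also built, while members include other ends and noncoding transcripts. The median 5′ score of the members was 6.92, against 7.51 in the other RI. It was 7.97 in such annotated introns of the same lengths and 8.23 in all of them. The 3′ score, over 20 intron and 3 exon bases, had medians of 7.21, 7.66, 8.48, and 9.50 in the same order. The third intron base, which is A or G in most introns, was G in 49.7% of members and 44.7% of the other RI. It was G in 47.0% of such annotated introns of the same lengths and in 34.5% of all of them. These shares are descriptions with no test. The median member was 177 nt long (quartiles 132 and 233 nt) with 59.3% GC, and 1684 members (95.8%) matched an annotated intron. By position, 1345 lay between coding exons, 139 in noncoding transcripts, 117 in 5′ UTRs, and 83 in 3′ UTRs, and 73 matched no annotated intron. Of the 1345 coding introns, 1049 held a stop codon in the frame of the upstream exon. Dinucleotides were GT-AG in 1696 members, GC-AG in 50, and AT-AC in 3.

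In 4-day DMSO, retention of the 1425 members tested against GSK591 spread over the whole scale, with a median Ψ of 0.180 and quartiles of 0.0504 and 0.829. Of these, 558 (39.2%) had a Ψ under 0.1 and 502 (35.2%) a Ψ over 0.5, among them 297 over 0.9. The median over all RI was also 0.180. Thus the class holds introns that nearly always leave the transcript, such as CARM1 103 nt with 0.0353, 0.0205, and 0.0225 in DMSO libraries a, b, and c, and introns that nearly always stay, such as the shorter HNRNPH1 member with 0.945, 0.961, and 0.938. CARM1 is a Type I PRMT, and its intron was not called in any comparison. Of the members, 413 overlap another member and 665 overlap any listed RI, and such introns share reads.

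With GSK591 the median retention of the class was higher than in DMSO. At day 2, 1061 of 1397 tested members had a ΔΨ above 0, and at day 7, 979 of 1383 did. Over the 1302 members with at least 10 reads in all 30 libraries, the median Ψ of a library was 0.148 ± 0.00657 in 4-day DMSO (SD, n = 3) and 0.151 ± 0.00592 in 7-day DMSO. With GSK591 it was 0.234 ± 0.00701 at day 2, 0.258 ± 0.00737 at day 4, and 0.208 ± 0.00708 at day 7, and no GSK591 library overlapped a DMSO library. Co-treatment gave 0.242 ± 0.00169 at day 2 and 0.241 ± 0.00376 at day 4. MS023 gave 0.141 ± 0.00250 at day 2, 0.133 ± 0.00313 at day 4, and 0.132 ± 0.00395 at day 7. The MS023 libraries of days 4 and 7 lay below all DMSO libraries, and at day 2 the highest MS023 library, at 0.144, was above the lowest DMSO library, at 0.142.

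The count of introns that rose with GSK591 was largest at day 4. At day 2, 390 of 1397 tested members rose (27.9%; over all RI 24.0% rose) and 21 fell (1.50%; all RI 2.38%), with a median ΔΨ of 0.0233 (all RI 0.0150). At day 4, 544 of 1425 rose (38.2%; all RI 33.9%) and 39 fell (2.74%; all RI 4.32%), with a median ΔΨ of 0.0302 (all RI 0.0196). At day 7, 354 of 1383 rose (25.6%; all RI 21.8%) and 65 fell (4.70%; all RI 6.10%), with a median ΔΨ of 0.0146 (all RI 0.0076). The share of members that rose was thus within 5 percentage points of that of all RI. Called rises with a ΔΨ over 0.1 numbered 184 of 1397 at day 2 (all RI 453 of 3866) and 287 of 1425 at day 4 (all RI 687 of 3933). At day 7 they numbered 173 of 1383 (all RI 422 of 3836). The 411 calls of day 2 became 262 without GSK591 library b, and 251, 245, and 251 without DMSO libraries a, b, and c. The 419 calls of day 7 became 270 without GSK591 library c, and 241 and 263 without DMSO libraries b and c. With limma on log2 odds there were 218 calls at day 2 and 253 at day 7.

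**Figure D1:**
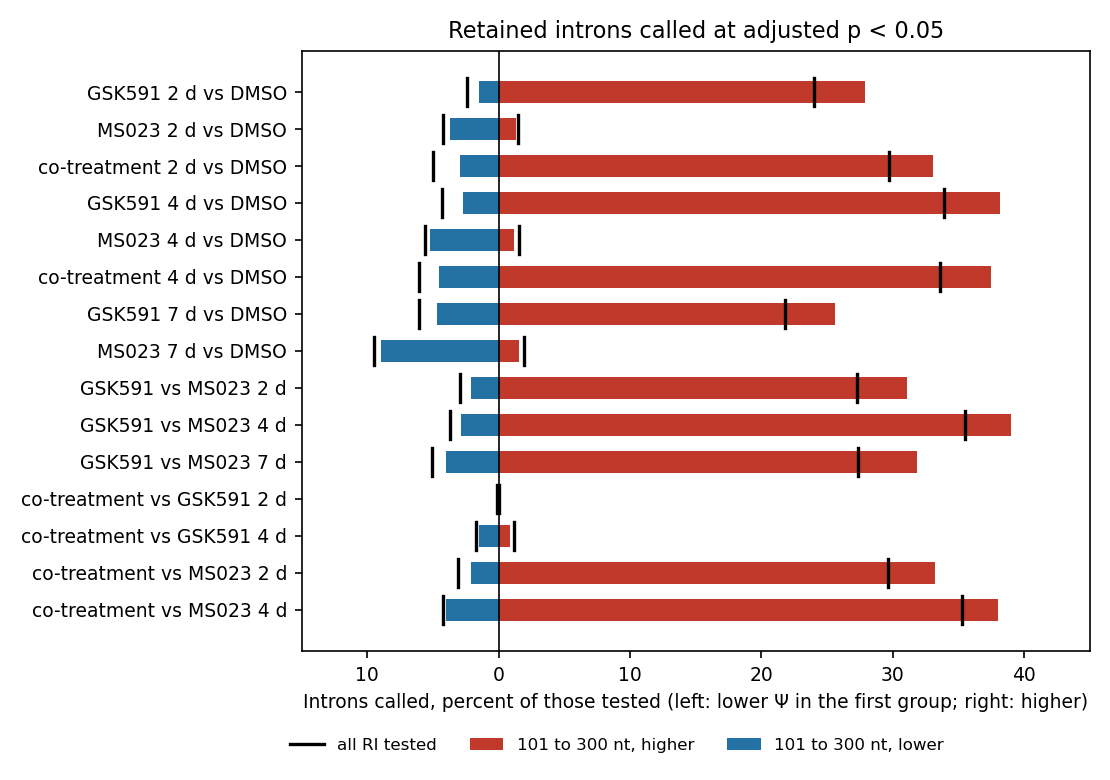
Percent of tested members called higher (bars to the right) or lower (bars to the left) at an adjusted p under 0.05 (horizontal axis) in the comparisons with DMSO and the direct contrasts of inhibitor groups (vertical axis), with black marks for all RI. The members stand at 38.2% higher with GSK591 at day 4 and at 8.92% lower with MS023 at day 7.

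Both kinds of read moved in the introns that rose. The calls were made from these same reads, so the movement is a description and not a separate result. After scaling to the reads on all RI, the 390 introns that rose at day 2 had a median log2 change of 0.72 in reads that include the intron and of -0.54 in reads that skip it, and in 322 of them inclusion went up and skipping went down. The 986 introns not called at day 2 had medians of 0.04 and -0.24, so that skipping reads were lower there too. At day 4 the medians were 0.93 and -0.52 (432 of 544 moved both ways), and at day 7 they were 0.67 and -0.58 (253 of 354), with -0.04 and -0.20 in the introns not called. In whole cultures, fewer cells of a type and less RNA per cell cannot be told apart, nor can a small change in every cell be told from a large one in few cells.

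Of the called introns with at least 50 reads in each library, those with the largest ΔΨ at day 2 were MROH6 109 nt (ΔΨ 0.454, adjusted p = 5.17e-05), ACTR1B, HAUS5, MOB2, and ETV4. For MROH6 the log2 odds ratio with GSK591 was 3.64 at day 4 and 0.68 at day 7. The interaction test between these days gave an adjusted p of 0.0162, while limma on log2 odds called no member. MOB2, which encodes a regulator of NDR kinases, had a Ψ of 0.151, 0.153, and 0.127 in DMSO libraries a, b, and c, and of 0.532, 0.550, and 0.554 in the 2-day GSK591 libraries (log2 odds ratio 2.83 ± 0.22 SE, adjusted p = 6.69e-08). The groups were far apart, and the intron also rose at day 4 (0.696, 0.777, and 0.593) and at day 7 (0.593, 0.543, and 0.559). In MS023 libraries it lay between 0.0712 and 0.114 and was not called.

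HAUS5 253 nt, in a gene of the augmin complex that nucleates microtubules in the spindle, had 0.350, 0.369, and 0.336 in DMSO and 0.744, 0.784, and 0.743 in 2-day GSK591 (log2 odds ratio 2.52 ± 0.25 SE, adjusted p = 6.68e-07). ETV4 190 nt, in a gene of an ETS transcription factor, had 0.247, 0.309, and 0.186 against 0.554, 0.650, and 0.722 (2.46 ± 0.29 SE, adjusted p = 5.7e-06). ACTR1B 235 nt, in a gene of a dynactin subunit, had 0.173, 0.143, and 0.149 against 0.532, 0.645, and 0.528 (2.88 ± 0.26 SE, adjusted p = 2.19e-07). In all of these the lowest GSK591 library was above the highest DMSO library. CASKIN2 131 nt (a scaffold protein; ΔΨ 0.384), TUBGCP6 187 nt (a subunit of the γ-tubulin ring complex; ΔΨ 0.384), and MICAL1 283 nt (an actin-oxidising enzyme; ΔΨ 0.381) followed. The calls of these 6 introns and that of MOB2 were kept with any 1 of the 6 libraries left out (highest adjusted p 0.0192), and MS023 called none of the 7 at any day.

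Others stood out at later days. UNC119 267 nt, in a gene of a lipid-binding trafficking protein, had 0.199, 0.224, and 0.170 in 4-day DMSO and 0.677, 0.694, and 0.640 in 4-day GSK591 (log2 odds ratio 3.02 ± 0.19 SE, adjusted p = 3.73e-11). ABHD11 170 nt, a mitochondrial hydrolase gene, had a ΔΨ of 0.509 at day 4. At day 7, JMJD8 156 nt, NBEAL2 174 nt, and ISCU 123 nt (an iron-sulfur cluster scaffold) had ΔΨ values of 0.420, 0.442, and 0.428. PHKG2 267 nt, at 0.422, and GSDMD 265 nt, at 0.485 at day 4, were of the same size, and an annotated exon of another gene lies across the PHKG2 intron.

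Fewer introns fell with GSK591. At day 2 their median DMSO Ψ was 0.283, against 0.0987 in introns that rose and 0.273 in those not called. ENDOV had 0.711, 0.654, and 0.674 in DMSO and 0.502, 0.490, and 0.484 in 2-day GSK591 (log2 odds ratio -1.11 ± 0.22 SE, adjusted p = 0.00111), with no overlap. It also fell at day 4 (0.478, 0.545, and 0.558; adjusted p = 0.00266). At day 7 the groups overlapped (0.516, 0.586, and 0.611 in DMSO; 0.538, 0.456, and 0.498 in GSK591; adjusted p = 0.185).

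EEF1D 131 nt, in a gene of a translation elongation factor subunit, was measured with 1888 or more reads in each 4-day DMSO library. It had 0.760, 0.788, and 0.821 in DMSO, 0.615, 0.613, and 0.605 in 2-day GSK591 (adjusted p = 3.67e-07), and 0.514, 0.501, and 0.508 in 4-day GSK591 (adjusted p = 1.09e-11). With MS023 it moved the other way, with 0.896, 0.910, and 0.881 at day 7 against 0.783, 0.775, and 0.806 (adjusted p = 2.47e-06). An exon of another gene overlaps this intron. ZSWIM7 130 nt, the last intron of a gene of homologous recombination, lies in the 3′ UTR and had 0.495, 0.495, and 0.538 in DMSO against 0.265, 0.318, and 0.301 in 2-day GSK591 (adjusted p = 0.000103). At day 7 its DMSO libraries were themselves lower, with 0.358, 0.391, and 0.392, and the GSK591 libraries had 0.247, 0.243, and 0.325 (adjusted p = 0.0136).

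The calls of ENDOV, EEF1D, and ZSWIM7 with GSK591 at days 2 and 4 were kept with any 1 library left out. That of ZSWIM7 at day 7 was lost without DMSO library b or c or GSK591 library a or b (highest adjusted p 0.103). ARFGAP1 181 nt, a regulator of ARF GTPases, had ΔΨ -0.138 at day 2, and its call was lost without GSK591 library a or any of the DMSO libraries (highest adjusted p 0.0874). RHOT2 244 nt, LIME1 105 nt, and TECR 207 nt had ΔΨ values of -0.223, -0.186, and -0.192 at day 4. The call of RHOT2 was lost without any 1 of the DMSO libraries (highest adjusted p 0.0936), that of LIME1 without DMSO a or c or GSK591 a or b (0.0773), and that of TECR without each library except GSK591 a (0.217). With limma on log2 odds the calls of LIME1 and TECR were lost (adjusted p = 0.0584 and 0.0883). At day 7, C2orf49 126 nt fell from 0.779, 0.823, and 0.775 to 0.569, 0.493, and 0.494 (adjusted p = 3.13e-05), and HERPUD2 173 nt from 0.520, 0.493, and 0.436 to 0.186, 0.218, and 0.225 (adjusted p = 4.44e-05), both with any library left out.

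MS023 changed few members, and most of these fell. At day 2, 19 of 1419 rose (1.34%; all RI 1.44%) and 53 fell (3.74%; all RI 4.21%). At day 4, 17 of 1421 rose (1.20%; all RI 1.57%) and 74 fell (5.21%; all RI 5.60%). At day 7, 22 of 1412 rose (1.56%; all RI 1.93%) and 126 fell (8.92%; all RI 9.49%). The median ΔΨ was -0.0034, -0.0044, and -0.0060 at days 2, 4, and 7, and -0.0032, -0.0040, and -0.0060 over all RI. These shares are near those of all RI. The counts depended on every library. Leaving out any 1 of the 6 gave 0 to 14 calls in place of 72 at day 2, 3 to 23 in place of 91 at day 4, and 23 to 57 in place of 148 at day 7. The limma test on log2 odds called 0 at each day, with 163, 214, and 240 members at an unadjusted p under 0.05, of which 57, 58, and 47 were higher.

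At day 7 the introns that fell with MS023 lost inclusion reads (median log2 change -0.49 over 126) and gained skipping reads (0.32). The introns not called had medians of -0.12 and 0.03, and the calls rest on these same reads. HNRNPM 117 nt, in a gene of an hnRNP splicing factor, was one of the introns that fell. It had 0.479, 0.484, and 0.484 in 4-day DMSO and 0.411, 0.408, and 0.427 in 2-day MS023 (adjusted p = 0.000107), and at day 7 it had 0.437, 0.473, and 0.450 in DMSO and 0.313, 0.327, and 0.317 in MS023 (adjusted p = 6.59e-11). With GSK591 the same intron rose to 0.613, 0.662, and 0.634 at day 2 (adjusted p = 2.88e-07). The calls of HNRNPM with MS023 at days 4 and 7 and with GSK591 were kept with any library left out, and the day 2 call with MS023 was lost without any library but DMSO c (highest adjusted p 0.0866).

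C9orf142 likewise moved both ways. It had 0.661, 0.762, and 0.654 in 4-day DMSO, 0.896, 0.865, and 0.914 in 2-day GSK591 (adjusted p = 0.000132), and 0.447, 0.537, and 0.636 in 2-day MS023 (adjusted p = 0.00739). At day 7 it had 0.659, 0.665, and 0.596 in DMSO, 0.877, 0.861, and 0.880 in GSK591 (adjusted p = 5.1e-07), and 0.401, 0.433, and 0.389 in MS023 (adjusted p = 2.33e-07). The 3 groups were apart at day 7, and the calls of that day were kept with any library left out. Those with MS023 at days 2 and 4 were each lost without any 1 of the 6 libraries (adjusted p 0.0661 to 0.380).

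AKAP8L 102 nt, in a gene of a nuclear scaffold protein, had 0.824, 0.779, and 0.839 in 7-day DMSO, 0.949, 0.939, and 0.912 in GSK591 (adjusted p = 0.000944), and 0.624, 0.638, and 0.631 in MS023 (adjusted p = 0.000172), and both calls were kept with any library left out. PIDD 116 nt, in a gene of a death domain protein, had ΔΨ -0.218 with MS023 at day 7 (adjusted p = 0.000354, and 0.0617 without MS023 library c). In CREBZF 213 nt, a bZIP factor gene, ΔΨ with MS023 at day 7 was -0.184 (adjusted p = 3.76e-05, with a highest adjusted p of 0.0849 without DMSO library b or MS023 library c). EWSR1 299 nt, in a gene of an RNA-binding protein of the FET family, rose with GSK591 at day 2 from 0.472, 0.496, and 0.502 to 0.790, 0.810, and 0.783 (adjusted p = 0.000203), and its 2-day MS023 libraries had 0.296, 0.385, and 0.247 (adjusted p = 0.0197, and 0.0866 to 0.292 without any 1 library).

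CEP170 rose with MS023 at every day and had the largest ΔΨ of the called introns named at day 2. It had 0.157, 0.114, and 0.111 in 4-day DMSO and 0.314, 0.242, and 0.317 in 2-day MS023 (log2 odds ratio 1.45 ± 0.32 SE, adjusted p = 0.00378). The 4-day MS023 libraries had 0.451, 0.270, and 0.263 (adjusted p = 0.00546), and those of day 7 had 0.294, 0.276, and 0.279 against 0.109, 0.141, and 0.0893 (adjusted p = 0.0143). The groups did not overlap at any day, yet each of these 3 calls was lost without any 1 of the 6 libraries (highest adjusted p 0.181), and at day 7 a MS023 library had as few as 31 reads. With co-treatment at day 2 the values were 0.282, 0.281, and 0.275, and this call was kept with any library left out (adjusted p = 0.0011; highest 0.0200). In GSK591 libraries CEP170 ranged from 0.0159 to 0.190 and was not called.

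CANT1 195 nt, a 5′ UTR intron of a calcium-activated nucleotidase gene, had 0.283, 0.307, and 0.310 in 4-day DMSO and 0.405, 0.390, and 0.403 in 2-day MS023 (adjusted p = 0.000631). With 4-day GSK591 it fell to 0.153, 0.157, and 0.178 (adjusted p = 7.22e-07), kept with any library left out. The day 2 call with MS023 was lost without any library but DMSO c (highest adjusted p 0.133). RBM3 230 nt, in a gene of a cold-inducible RNA-binding protein, had 0.692, 0.693, and 0.717 in 4-day DMSO and 0.854, 0.855, and 0.840 in 4-day MS023 (adjusted p = 0.00648), and its call was kept without 1 of the 6 libraries and lost without each other (highest adjusted p 0.104).

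**Figure D2:**
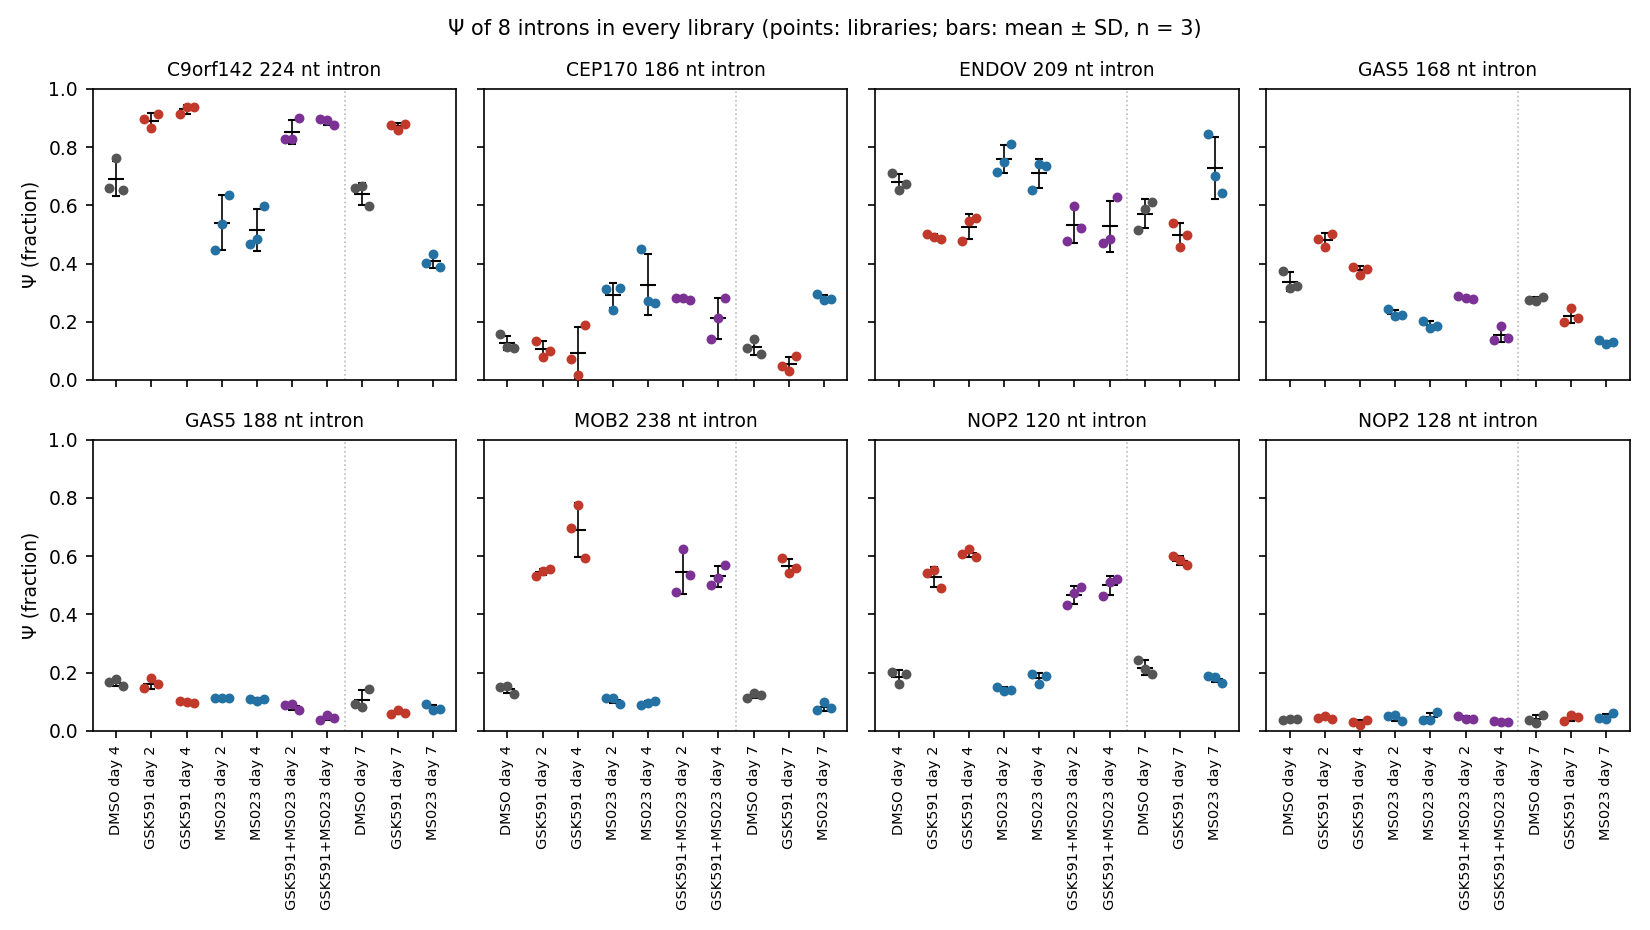
Ψ (vertical axes, 0 to 1) in each of the 30 libraries for 8 introns, with 1 panel per intron, 1 point per library, and the mean and SD of each group of 3 (horizontal axes: treatment and day). NOP2 120 nt and MOB2 rise with GSK591 and NOP2 128 nt stays between 0.0206 and 0.0650, while GAS5 168 nt and C9orf142 go down with MS023 and CEP170 goes up.

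The direct contrast of the inhibitors asks how far the responses lie apart on the same day. Against MS023, GSK591 libraries had higher Ψ in 426 of 1372 members at day 2 and lower Ψ in 29 (all RI 27.2% and 2.97%), in 550 and 40 of 1411 at day 4 (all RI 35.5% and 3.74%), and in 438 and 55 of 1374 at day 7 (all RI 27.3% and 5.04%). The 455 calls of day 2 became 298 without MS023 library a. NOP2 120 nt differed at every day (ΔΨ 0.385, 0.429, and 0.406), and so did EEF1D in the other direction (ΔΨ -0.244, -0.348, and -0.352; adjusted p = 0.000198, 1.49e-05, and 1.9e-05).

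Co-treatment asks whether blocking both classes of enzyme changes what GSK591 does. Against DMSO it raised 463 of 1399 members at day 2 (33.1%; all RI 29.7%) and lowered 41 (2.93%; all RI 5.03%), and at day 4 it raised 528 of 1410 (37.4%; all RI 33.6%) and lowered 64 (4.54%; all RI 6.10%). The median ΔΨ was 0.0234 at day 2 and 0.0232 at day 4 (all RI 0.0161 at both). Against MS023, co-treatment was higher in 459 of 1381 at day 2 and lower in 29 (all RI 29.6% and 3.13%), and higher in 536 of 1411 at day 4 and lower in 57 (all RI 35.3% and 4.23%).

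Against GSK591 itself, few members differed. At day 2, 0 of 1378 were higher in co-treatment and 2 were lower (all RI 0.00% and 0.132%), with 166 at an unadjusted p under 0.05, 79 of them higher. At day 4, 12 of 1426 were higher and 21 lower (all RI 1.20% and 1.73%). Leaving out any 1 library left 0 or 1 call at day 2 and 0 to 6 at day 4, and limma on log2 odds made 0 calls at day 2 and 1 at day 4. The 2 introns of day 2 were GAS5 168 nt and SNHG1 184 nt, which lie in the noncoding host genes of small nucleolar RNAs.

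SNHG1 184 nt had 0.318, 0.286, and 0.254 in 4-day DMSO. It had 0.230, 0.231, and 0.220 in 2-day GSK591 (adjusted p = 0.0119, lost without any library but DMSO c, highest 0.0956), 0.276, 0.266, and 0.260 in 2-day MS023, and 0.134, 0.138, and 0.118 in 2-day co-treatment. All co-treatment libraries were below all GSK591 libraries (log2 odds ratio -0.98 ± 0.08 SE, adjusted p = 0.0213), and this call was lost without any 1 library (adjusted p 0.129 to 0.237). At day 4 the libraries had 0.215, 0.188, and 0.220 with GSK591 and 0.0840, 0.0954, and 0.0791 with both (-1.47 ± 0.11 SE, adjusted p = 0.00742). That call was lost without GSK591 a or c or co-treatment a (0.0588 to 0.0727).

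At day 4, EEF1D was less reduced by both inhibitors, with 0.640, 0.622, and 0.626 against 0.514, 0.501, and 0.508 with GSK591 alone (log2 odds ratio 0.72 ± 0.06 SE, adjusted p = 0.00764, and 0.0750 at most without GSK591 c or co-treatment a). USP21 222 nt had 0.573, 0.601, and 0.614 against 0.316, 0.327, and 0.345 (1.56 ± 0.16 SE, adjusted p = 0.0157, lost without any 1 library, 0.0965 at most). The ends of the USP21 intron are not of the GT-AG, GC-AG, or AT-AC kinds, and its 5′ score was -21.95.

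Of the genes the study names, GAS5 has 7 members, NOP2 and HNRNPH1 have 2 each, and CHTOP and SNRPB have none of this length. NOP2 120 nt had 0.203, 0.159, and 0.195 in 4-day DMSO and 0.543, 0.551, and 0.489 in 2-day GSK591 (log2 odds ratio 2.32 ± 0.14 SE, adjusted p = 6.11e-09). It stayed high at day 4 (0.608, 0.626, and 0.598) and day 7 (0.600, 0.586, and 0.568, against 0.244, 0.213, and 0.194 in DMSO), and these calls were kept with any library left out. MS023 libraries had 0.138 to 0.195, and none of the MS023 comparisons called it. With both inhibitors at day 4 the values were 0.463, 0.511, and 0.523, all below those of GSK591 alone (adjusted p = 0.0384, lost without any 1 library, 0.140 at most).

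The neighbouring NOP2 128 nt intron, upstream by 1 exon, was removed throughout. Its Ψ lay between 0.0206 and 0.0650 in all 30 libraries, with at least 348 reads in each, and it was not called in any of the 16 comparisons. At day 2 the log2 odds ratio with GSK591 was 0.18 ± 0.22 SE. The introns differ in 5′ score by more than 5, as given with their sequences, while their 3′ scores were 9.37 (120 nt) and 6.53 (128 nt), which is the other order.

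HNRNPH1 206 nt, intron 3 of 13 in a gene of a G-rich-RNA-binding splicing factor, had 0.127, 0.120, and 0.120 in 4-day DMSO. It had 0.173, 0.229, and 0.193 in 2-day GSK591 (adjusted p = 1.72e-05) and 0.279, 0.319, and 0.326 in 4-day GSK591 (adjusted p = 1.58e-12). With MS023 at day 7 it had 0.0755, 0.0659, and 0.0612 against 0.0954, 0.119, and 0.0983 in DMSO (adjusted p = 2.45e-05, and 0.0917 at most without MS023 b or c). The shorter HNRNPH1 member, an alternative form that 2 other listed introns overlap, rose from its high DMSO level to 0.991, 0.996, and 0.994 in 4-day GSK591 (adjusted p = 5.43e-05).

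GAS5 168 nt changed with time as well as with the inhibitor. It had 0.375, 0.316, and 0.323 in 4-day DMSO and 0.484, 0.455, and 0.503 in 2-day GSK591 (log2 odds ratio 0.86 ± 0.10 SE, adjusted p = 1.12e-05). In 4-day GSK591 it had 0.389, 0.361, and 0.382, which overlapped DMSO (adjusted p = 0.0542), and at day 7 it had 0.198, 0.248, and 0.214 against 0.275, 0.271, and 0.287 (-0.45 ± 0.10 SE, adjusted p = 0.0018). The rise of day 2 was kept with any library left out, and the fall of day 7 was kept only without GSK591 library b (0.0907 at most). Thus the sign of the difference turned between days 2 and 7, across different DMSO libraries.

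With MS023 the GAS5 168 nt intron fell at each day, to 0.244, 0.219, and 0.222 at day 2 (adjusted p = 9.97e-07), to 0.204, 0.180, and 0.185 at day 4 (adjusted p = 8.15e-07), and to 0.136, 0.124, and 0.129 at day 7 (adjusted p = 6.59e-11). The call of day 7 was kept with any library left out, that of day 4 was lost without MS023 b (0.0514), and that of day 2 was lost without any library but DMSO c (0.133 at most). Co-treatment was on the side of MS023, with 0.287, 0.281, and 0.278 at day 2 and 0.136, 0.184, and 0.146 at day 4. Against GSK591 this was a log2 odds ratio of -1.23 ± 0.08 SE at day 2 (adjusted p = 0.0213) and of -1.74 ± 0.14 SE at day 4 (adjusted p = 0.00764). The day 2 call was lost without GSK591 a or any co-treatment library (0.237 at most), and the day 4 call without GSK591 a or c or co-treatment a or c (0.0730 at most).

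With co-treatment at day 4, the GAS5 introns of 179, 181, 188, 193, and 282 nt also fell, and that of 227 nt rose. GAS5 188 nt had 0.166, 0.176, and 0.154 in DMSO, 0.102, 0.0984, and 0.0956 in 4-day GSK591 (adjusted p = 2.72e-06), and 0.0379, 0.0555, and 0.0423 in 4-day co-treatment (adjusted p = 8.64e-12), and both calls were kept with any library left out. GAS5 227 nt had 0.339, 0.327, and 0.348 in 4-day DMSO and 0.373, 0.430, and 0.379 in 4-day co-treatment (adjusted p = 0.0181, kept only without co-treatment library a), while 4-day MS023 libraries had 0.224, 0.231, and 0.238 (adjusted p = 0.000118). GAS5 179 nt and 227 nt, like 168 nt, rose with GSK591 at day 2 (adjusted p = 0.000786 for 179 nt and 0.00122 for 227 nt), and that of 179 nt was lost without DMSO b or c or GSK591 a (0.0689 at most). The introns of this gene share its transcripts and, in part, their reads, and are not separate measurements.

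The effects of day 4 and day 7 rest on different inhibitor and control libraries. Of 1351 members tested with GSK591 at both days, 537 rose at day 4 and 353 at day 7, and 308 rose at both, which is 57.4% of the first list and 87.3% of the second. Of those that fell, 38 at day 4 and 65 at day 7, 19 did so at both (50% and 29.2%). With MS023, 74 fell at day 4 and 126 at day 7 among 1367, and 45 did so at both (60.8% and 35.7%). The overlap over all RI was not computed, so these shares cannot be taken as particular to this length. The median log2 odds ratio with GSK591 was 0.78 at day 4 and 0.49 at day 7, and the median difference was -0.33, as over all RI (-0.33).

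**Figure D3:**
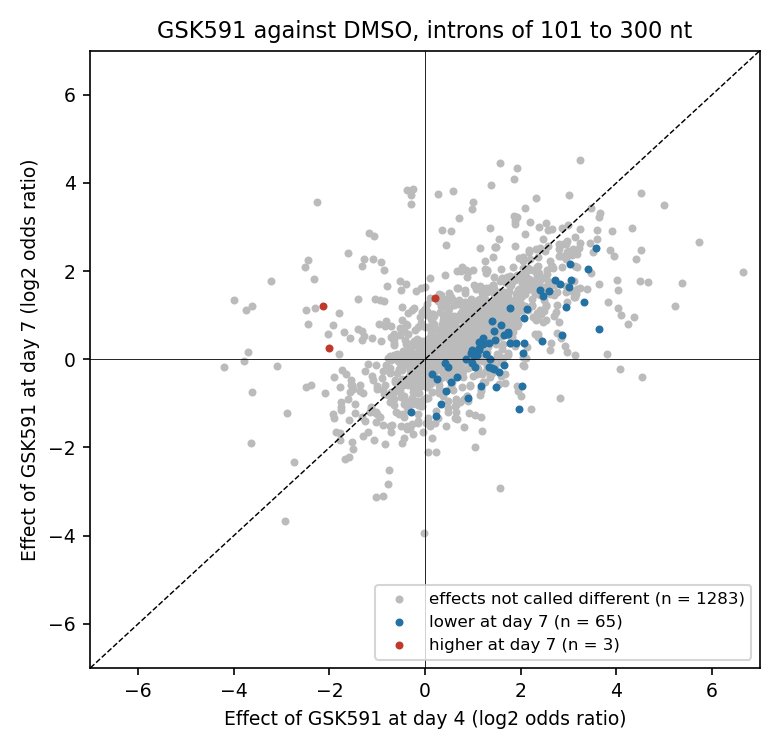
Log2 odds ratio of retention, GSK591 over DMSO, at day 4 (horizontal axis) and day 7 (vertical axis) for members tested at both days, with 1 point per intron and the line of equal effects. Members whose effects differ by the interaction test are marked, and 65 of these 68 have the lower effect at day 7.

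The interaction of GSK591 and day was called in 68 of the 1351 members (all RI 6.23%), with 65 lower at day 7 and 3 higher (ARFGAP1 181 nt, and INO80E 155 nt and NOSIP 123 nt, which are named after their values were seen). Without GSK591 day 7 library a the count was 39. EIF6 119 nt, in a gene of a ribosome biogenesis factor, had a log2 odds ratio at day 7 minus that at day 4 of -1.09 (adjusted p = 0.000295), and EIF4A1 120 nt, in the gene of the helicase of translation initiation, had a difference of -0.62 (adjusted p = 0.0021, with an exon of another gene across it). Both were kept with any 1 of the 12 libraries left out, but limma on log2 odds called 0 members (adjusted p = 0.144 for EIF6 and 0.216 for EIF4A1). For MS023, 5 of 1367 members were called (all RI 0.295%), and 0 by limma on log2 odds. DMSO at 7 against 4 days gave 20 calls among 1421 members (all RI 1.89%), of which 14 were higher at day 7, and 0 without any 1 library. Over all RI, 28 were higher and 46 lower.

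The gene groups are given by their counts, to be read beside all members. A group can hold several introns of 1 gene, and these are not separate measurements. The introns named from a group were among those with its smallest p with GSK591 or MS023 at day 2. They are therefore not typical of the group. With GSK591 the shares of all members that rose were 27.9%, 38.2%, and 25.6% at days 2, 4, and 7, and the shares that fell were 1.50%, 2.74%, and 4.70%. With MS023 at day 7, 1.56% rose and 8.92% fell. At day 2 with GSK591, 10 of 35 introns in splicing factor genes rose (28.6%) and 0 fell (median ΔΨ 0.0181), at day 4 15 of 35 rose, and at day 7 12 rose and 2 fell. With MS023 at day 7, 1 rose (2.86%) and 6 fell (17.1%). Of 16 introns in genes of DEAD and DEAH box helicases, which unwind RNA in splicing and ribosome assembly, 9 rose at day 2 and 9 at day 4 with 0 lower (56.2% at both days; median ΔΨ 0.0426 at day 2). DDX23 130 nt, in the gene of a helicase of the U5 snRNP, had 0.0436, 0.0484, and 0.0285 in DMSO and 0.110, 0.129, and 0.127 in 2-day GSK591 (adjusted p = 1.22e-06). DDX5 215 nt had 0.0457, 0.0371, and 0.0449 against 0.0662, 0.0840, and 0.0746 (adjusted p = 3.17e-05), and DDX41 200 nt had 0.0486, 0.0426, and 0.0454 against 0.111, 0.104, and 0.0803 (adjusted p = 0.00135). These introns remained mostly removed, and the 3 calls were kept with any library left out.

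Of 13 introns in genes of RNA methyltransferases, NOP2 among them, 5 rose with GSK591 at day 2 (38.5%, against 27.9% of all members) and 0 fell (median ΔΨ 0.0444). FTSJ3 262 nt, in a gene of an rRNA methyltransferase, had 0.0260, 0.0152, and 0.0419 in DMSO and 0.0695, 0.0695, and 0.0893 in 2-day GSK591 (adjusted p = 0.00126, and 0.0623 without DMSO a). Of 7 RNA decay introns, 2 rose (28.6%). PAN2 126 nt, in a gene of a poly(A) nuclease, had 0.347, 0.351, and 0.462 against 0.682, 0.763, and 0.732 (adjusted p = 6.21e-05), and CNOT3 256 nt, in a gene of a CCR4-NOT deadenylase subunit, had 0.00817, 0.0224, and 0.0202 against 0.0837, 0.115, and 0.0931 (adjusted p = 4.87e-06). Both were kept with any library left out.

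Introns of ribosomal protein genes changed by small amounts measured with many reads. Of 34 in cytosolic ribosome genes, 10 rose with GSK591 at day 2 (29.4%, near the 27.9% of all members) and 0 fell, with a median ΔΨ of 0.00199. At day 4, 11 of 34 rose and 3 fell, and at day 7, 5 of 35 rose and 3 fell. With MS023 at day 7, 2 of 35 rose and 5 fell (14.3%, against 8.92% of all members). RPL17 151 nt, in the 5′ UTR, had 0.944, 0.934, and 0.937 against 0.972, 0.974, and 0.973 in 2-day GSK591 (adjusted p = 0.00113), and 0.857, 0.860, and 0.869 in 7-day MS023 against 0.949, 0.944, and 0.942 (adjusted p = 1.63e-08). These RPL17 calls were kept with any library left out, and a transcript that joins RPL17 with its neighbour shares the region. Of 16 proteasome introns 6 rose (37.5%) and 0 fell at day 2, among them PSMD4 247 nt, which had 0.00674, 0.0125, and 0.00812 against 0.0220, 0.0235, and 0.0244 (adjusted p = 0.000671).

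Of 30 introns in DNA repair genes, 2 rose and 2 fell with GSK591 at day 2 (6.67% each, against 27.9% and 1.50% of all members; median ΔΨ 0.00483), and 6 rose and 2 fell of 29 at day 4 (20.7% and 6.90%, against 38.2% and 2.74%). ERCC3 187 nt, in a gene of the TFIIH helicase, had 0.121, 0.162, and 0.176 in DMSO and 0.316, 0.342, and 0.330 in 4-day GSK591 (adjusted p = 3.1e-06). MUS81 201 nt, in a gene of a structure-specific nuclease, had 0.278, 0.286, and 0.285 against 0.200, 0.0914, and 0.181 (adjusted p = 0.00202, and 0.0603 at most without any 1 DMSO library). Of 9 introns in the apoptosis group, from 4 genes, 3 rose at day 2 (33.3%) and 0 fell.

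The small groups gave few calls with GSK591 at day 2. Rises numbered 2 of 4 in mRNA export, 1 of 5 in the mitochondrial ribosome, 1 of 3 in the RNA polymerases, 2 of 10 in aminoacyl-tRNA synthetases (2 genes), 1 of 15 in histone-modifying enzymes, 0 of 2 in Mediator, and 0 of 6 in arginine methyltransferases, and none of these groups had an intron that fell. HDAC1 283 nt, of a histone deacetylase gene, had 0.0236, 0.0283, and 0.0227 in DMSO and 0.0591, 0.0522, and 0.0783 (adjusted p = 0.00129), kept with any library left out. PRMT5, the target of GSK591, has 2 members, of 108 and 256 nt, which share an end. The lowest library value was 0.937 for PRMT5 108 nt and 0.919 for PRMT5 256 nt. PRMT5 108 nt was not called in a comparison with DMSO, and PRMT5 256 nt had ΔΨ -0.0355 with GSK591 at day 7 (adjusted p = 0.0381, lost without any 1 library, 0.288 at most). An antisense gene lies across this region. The 10 introns in host genes of small nucleolar RNAs came from 2 genes and are not separate measurements. Of these introns, 4 rose and 1 fell with GSK591 at day 2, and 1 rose and 7 fell at day 7 (all members 25.6% and 4.70%).

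In 275 genes with 2 or more tested members, GSK591 at day 2 raised all members in 23, some in 130, and none in 122, and 6 genes had calls in both directions. At day 4 the counts were 37, 145, and 98 of 280, and with MS023 at day 7 all members rose in 0 of 278 genes and some in 13. Genes in which all or some members fell were not counted, although with MS023 at day 7 126 members fell and 22 rose. The counts per gene over all RI were not computed, so they cannot be taken as particular to this length. CDK5RAP3, which encodes a regulator of protein UFMylation, has the most members, 8. CDK5RAP3 209 nt, in intron 1, had 0.405, 0.317, and 0.300 in DMSO and 0.736, 0.666, and 0.747 in 2-day GSK591 (adjusted p = 7.08e-07). The other CDK5RAP3 introns are named after their values were seen. The 215 nt form rose from a mean of 0.564 to 0.807, the 280 nt form from 0.0768 to 0.184, and the 230 nt form from 0.927 to 0.986, while the 190, 127, 237, and 234 nt forms were not called at day 2. Several of these share an end, so that 1 read can count for more than 1 form.

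The introns that rose with GSK591 had lower 5′ scores at the median, which is given as a description with no test. At day 2 the median 5′ score was 6.16 in introns that rose, 7.27 in those not called, and 7.73 in those that fell. At day 4 these medians were 6.21, 7.44, and 8.04, and at day 7 5.92, 7.22, and 8.07. Introns that rose also had more reads (a median of 273.5 in the shallowest library, against 111 in those not called at day 2), and the part of depth in these medians was not tested. With members in 4 equal bins by score (limits 4.88, 6.92, and 8.57), 122 of 342, 117 of 345, 97 of 352, and 54 of 358 rose at day 2 from the weakest to the strongest bin, with median ΔΨ values of 0.035, 0.033, 0.022, and 0.008. At day 7 the counts were 119 of 336, 99 of 345, 93 of 346, and 43 of 356. Over members with at least 50 reads per library, Spearman's rho between score and log2 odds ratio across introns was -0.26, -0.32, and -0.28 with GSK591 at days 2, 4, and 7, and 0.02, 0.01, and 0.14 with MS023. Introns are not independent replicates, comparisons of days 2 and 4 share their controls, and all points share the same libraries.

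**Figure D4:**
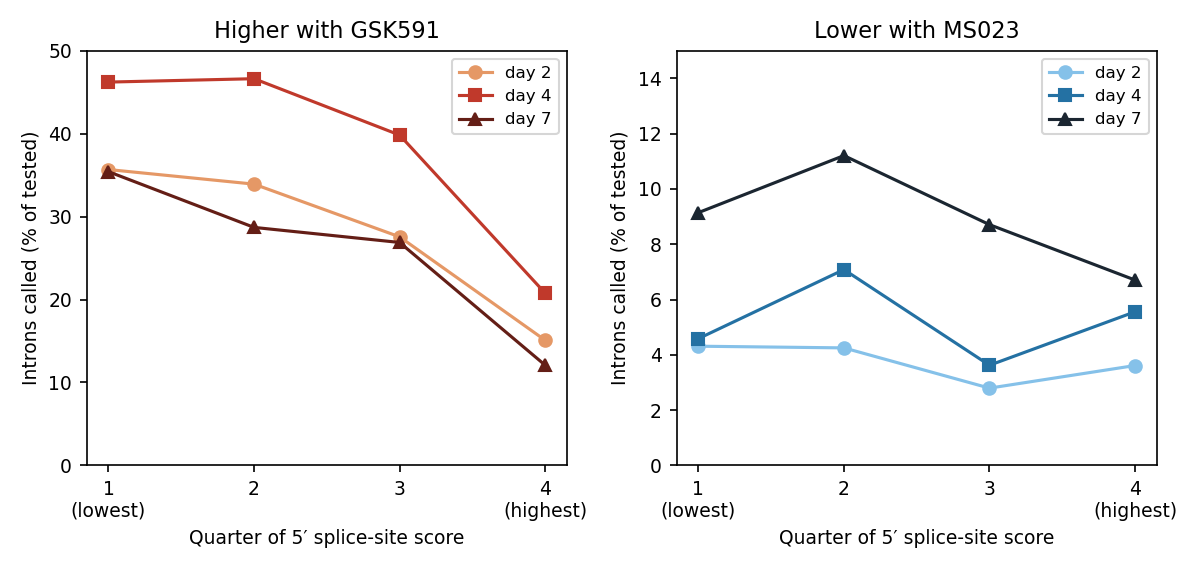
Percent of tested members (vertical axes, which differ in scale) called higher with GSK591 (left) and lower with MS023 (right) at days 2, 4, and 7, with 1 line per day, in 4 bins of the 5′ splice site score (horizontal axis, weakest to strongest). With GSK591 at day 2 the counts go from 122 of 342 to 54 of 358, and with MS023 at day 7 from 32 of 350 to 24 of 358.

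The introns listed above with a 5′ site are examples and do not show the range of scores. Those of them that rose all scored below 6.16, the median of the introns that rose at day 2. Of the introns listed with a 5′ site, ETV4 scored 2.95, EWSR1 1.24, ACTR1B 4.35, HAUS5 4.98, CASKIN2 4.80, TUBGCP6 4.44, and MICAL1 5.87, and of those that fell, RHOT2 scored 10.6 and LIME1 8.58, with TECR at 7.61 and ARFGAP1 at 5.74. Scores overlapped between the outcomes, and 54 of 358 members in the strongest bin rose at day 2. MARS 253 nt, a methionyl-tRNA synthetase intron with a score of 10.6, rose from 0.0886, 0.102, and 0.0921 to 0.123, 0.124, and 0.121 at day 2 (adjusted p = 0.00372), and HERPUD2, with 4.32, fell at day 7.

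The counts also differed by position in the transcript and by DMSO level. These are descriptions with no test, and position, level, and score were not separated from each other. Members between coding exons rose in 357 of 1103 cases at day 2, those in 5′ UTRs in 16 of 89, those in 3′ UTRs in 3 of 68, those in noncoding transcripts in 14 of 93, and those matching no annotated intron in 0 of 44. Among introns that match the annotation, the last intron of a transcript made up 18 of 390 that rose (4.62%), 115 of 943 not called (12.2%), and 8 of 20 that fell. By DMSO level, 75 of 179 introns with a Ψ of 0.2 to 0.5 rose at day 2 (median ΔΨ 0.119), while 16 of 288 with a Ψ of 0.9 or more did. By length, in 4 bins of 50 nt from the shortest to the longest, the share that rose at day 2 was 24.8%, 31.1%, 28.5%, and 29.0%. At the lower limit of the rule, the median ΔΨ at day 2 was 0.0189 for the introns up to 10 nt too short and 0.0126 for the shortest members within 10 nt of it. At the upper limit it was 0.0107 for the longest members and 0.0219 for the introns up to 10 nt too long. Among the other RI, 28.9% of those up to 100 nt, 20.2% of the longer ones up to 1000 nt, and 14.9% of those above 1000 nt rose at day 2.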

How the data were processed

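Poly(A)-RNA of A549 cells was sequenced in 30 libraries. The authors trimmed reads with Trim Galore 0.6.5, aligned them to hg19 with STAR 2.4.2a, and counted inclusion and skipping reads of splicing events with rMATS, whose version differs between the sources used here. The deposited tables hold these counts per library and effective lengths, with 1 treated and 1 DMSO group per table. Their columns of p-values, FDR, and inclusion differences hold the authors' own comparisons and were not used. Libraries were taken by position, since the columns carry no numbers.

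Ψ was computed as inclusion reads over effective length, divided by the sum of that and skipping reads over effective length. Inclusion and skipping counts were tested in a quasi-binomial logistic model in R 4.3.3, with the dispersion moderated by limma 3.58.1 and held at 1 or above, an F test, and Benjamini-Hochberg adjustment over all RI of a comparison. An intron needed 10 reads in each library, and a call needed an adjusted p under 0.05. Each group had 3 libraries, which limits the precision. After the fits, the test was also run on simulated counts with the read depths of these libraries. The outcome is not given here. For the interactions the simulated spread was a fixed value and not that of the data, so those calls were not checked at their own spread. Sequences came from hg19 and introns were matched to a GENCODE annotation of that build. Named introns were those with the largest called ΔΨ in either direction per comparison with at least 50 reads, and members of genes the study names. Those with the smallest interaction p were added. From each gene list, only the few members with the smallest p with GSK591 or MS023 at day 2 were added. Members and lists were chosen with earlier results of these data known. Alternatives were limma on log2 odds (0.5 added to each count), a minimum of 20 reads or none, no dispersion floor, an adjusted p under 0.01, no effective length, and leaving out each library.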

Additional observations from a re-analysis of the deposited data

Results flagged for a closer look

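The change of Ψ with GSK591 differed between day 4 and day 7, by the interaction test of the same model (limma-moderated, adjusted over all RI), in 68 members. The 6 with the smallest p are given here. The log2 odds ratio at day 7 minus that at day 4 was -1.65 for FASTK 219 nt (adjusted p = 5.61e-05), -1.09 for EIF6 119 nt (adjusted p = 0.000295), -1.056 for PHB2 112 nt (adjusted p = 0.000527), -1.13 for MPDU1 143 nt, -0.6199 for EIF4A1 120 nt, and -2.022 for GSDMD 265 nt. These 6 calls were kept with any 1 of the 12 libraries left out, and all were lost with limma on log2 odds, which called 0 members (adjusted p 0.0607 to 0.216). Another 15 introns named for other reasons were also called, among them DDX51 254 nt at -2.64 (adjusted p = 0.00223), GAS5 168 nt at -0.70 (adjusted p = 0.00663), and ARFGAP1 181 nt at 2.27 (adjusted p = 0.00703).

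In FASTK, MPDU1, and GSDMD the DMSO libraries themselves were higher at day 7. FASTK 219 nt had 0.142, 0.173, and 0.150 in 4-day DMSO and 0.293, 0.279, and 0.259 in 7-day DMSO, while GSK591 libraries had 0.289, 0.350, and 0.356 at day 4 and 0.262, 0.257, and 0.225 at day 7. MPDU1 143 nt had 0.123, 0.104, and 0.131 in 4-day DMSO and 0.258, 0.272, and 0.215 in 7-day DMSO. GSDMD 265 nt had 0.114, 0.107, and 0.224 in 4-day DMSO and 0.401, 0.346, and 0.390 in 7-day DMSO. PHB2 112 nt changed sign, with 0.0590, 0.0594, and 0.0616 in DMSO and 0.0798, 0.0899, and 0.0846 in GSK591 at day 4, and 0.0691, 0.0556, and 0.0709 against 0.0400, 0.0510, and 0.0482 at day 7. The part of the DMSO libraries in these differences was not tested.

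With MS023 the difference was -2.038 for GAPDH 129 nt, -0.6139 for RPL13 163 nt, 2.886 for UBE2V1 137 nt, -1.102 for HDLBP 234 nt, and -0.5964 for HNRNPH1 206 nt. GAPDH and RPL13 (adjusted p = 0.00333 for both) were kept with any 1 of the 12 libraries left out, and UBE2V1, HDLBP, and HNRNPH1 were kept in 2, 2, and 5 of the 12. All 5 were lost with limma on log2 odds (adjusted p 0.05002 to 0.794). UBE2V1 137 nt had 0.552, 0.581, and 0.600 in 4-day DMSO against 0.270, 0.218, and 0.241 in MS023, and 0.431, 0.287, and 0.362 against 0.510, 0.534, and 0.445 at day 7.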

How the results depend on the processing

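No paired analysis was possible because the columns carry no replicate numbers. The planned count model with a library term was not run. With limma on log2 odds the calls at day 2 were 218 (GSK591), 0 (MS023), and 323 (co-treatment), at day 4 0 (MS023), at day 7 253 (GSK591) and 0 (MS023), 0 and 1 for co-treatment against GSK591 at days 2 and 4, 0 for DMSO day 7 against 4, and 0 for both interactions, against 411, 72, 504, 91, 419, 148, 2, 33, 20, 68, and 5; the cause was not tested. At an adjusted p under 0.01 there were 28, 44, and 94 calls with MS023 at days 2, 4, and 7, 226, 391, and 292 for GSK591 against MS023, 0 and 4 for co-treatment against GSK591, 250 and 366 against MS023, 0 for DMSO, and 24 and 2 for the interactions of GSK591 and MS023, since the threshold is stricter. Without the dispersion floor, co-treatment against GSK591 at day 2 gave 5 and DMSO 36. Without effective lengths, the median ΔΨ was 0.0418 for GSK591 against MS023 at day 4 and 0.0345 for co-treatment against MS023 at day 2. Leaving out 1 library gave 245 to 316 calls for GSK591 at day 2, 437 to 467 at day 4, and 241 to 297 at day 7, 0 to 14, 3 to 23, and 23 to 57 for MS023, 348 to 376 and 437 to 486 for co-treatment, 298 to 408, 473 to 514, and 379 to 409 for GSK591 against MS023, 0 to 1 and 0 to 6 for co-treatment against GSK591, 355 to 380 and 472 to 502 against MS023, 0 to 0 for DMSO, and 39 to 61 and 2 to 4 for the interactions. No named intron reversed, but of 174 results for named introns 73 lost their call with limma on log2 odds, and of 1116 fits that leave out 1 library 341 did. Low reads limit introns near a Ψ of 0 or 1.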
